A study of Mus musculus with 15 samples.

Results

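The comparison concerns mouse embryos at E16.5 that carried the K228E mutation on both copies of *Tbr1*, set against WT embryos of the same age. Of the 15 embryos that were sequenced, the 10 used here were the 5 labelled WT and the 5 labelled Tbr1 homo, written below as Tbr1 K228E/K228E or homozygous. Of the 19475 genes deposited, the 16507 with a mean normalized read count of at least 5 over the 15 embryos were tested. The remaining 5 embryos, labelled Tbr1 hetero and written Tbr1 +/K228E, entered the statistical fit to give a common estimate of the spread, and their values stand beside those of the homozygotes. Each genotype comprised 3 females and 2 males. The mutation was a constitutive knock-in in exon 1 on a C57BL/6J background, so that every cell carried it. A neo cassette had been removed from the targeted allele with protamine-Cre. WT embryos carried neither the mutation nor another engineered allele that the labels name. The labels do not give the litters, and p-values therefore measure the spread between these embryos. The tissue was described as forebrain by the study and as whole brain in the deposited series.

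TBR1 is a transcription factor with a T-box, a domain that binds DNA, and it is made by the early-born excitatory neurons of the cerebral cortex. It is best known in neurons of layer 6 that project to the thalamus, in subplate neurons, and in Cajal-Retzius cells, which lie at the surface of the cortex and secrete reelin. K228E replaces a lysine of the T-box with a glutamate. Among the genes regarded as controlled by TBR1 are *Reln*, *Auts2*, and *Grin2b*, and TBR1 is known to restrain the layer 5 genes *Fezf2* and *Bcl11b* in layer 6.

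The site of the mutation is shown first because the rest of the data depend on it. Codon 228 of the reference transcript Tbr1-201 (coding length 2043 bases, GENCODE M21) lies in exon 1 at chr2:61805389-61805391 of GRCm38, on the plus strand. It is shown in capitals with 30 coding bases on either side and encodes lysine in the reference. The base change carried by the knock-in allele was not read, because the deposited values are sums per gene.
*Tbr1* codon 228: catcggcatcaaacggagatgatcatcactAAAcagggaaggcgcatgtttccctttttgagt

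The identity of the tissue and of the embryos was examined before the comparison. The forebrain genes *Emx1*, *Emx2*, *Neurod6*, *Bcl11b*, *Dlx2*, and *Dlx5* were present in all 15 embryos, and *Neurod6*, a transcription factor of excitatory cortical neurons, ranged from 3502 to 11277 normalized read counts. *Ddx3y*, on the Y chromosome, was 0 in all females and at least 1495 in males, as labelled. An estimated 26.3 to 38.2 M reads (M, megareads) lay behind each embryo. Embryos of the same genotype varied in genes of the hindbrain and of the meninges. The summed normalized read count of 14 Hox genes, which mark the hindbrain and spinal cord, ranged from 4.80 to 3274 in WT and from 4.08 to 575 in homozygous embryos. That of 17 meningeal genes ranged from 10223 to 57603 in WT and from 7888 to 45697 in homozygous embryos.

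In homozygous embryos 21 genes differed from WT at an adjusted p under 0.05 (limma with Benjamini–Hochberg correction), which is 0.127% of the genes tested. *Tbr1* itself rose, together with *Sowahb*, *Gcg*, *Vegfd*, *Nrgn*, *Trmt9b*, *Slc4a10*, *Cabp7*, *Tank*, and *Schip1*. *Samd3*, *Mc4r*, *P2rx5*, *Adamts3*, *Wnt7b*, *Reln*, *Lypd6*, *Prex1*, *Rbm14*, *Unc5b*, and *Sybu* fell. The 10 genes that rose are 0.0606% and the 11 that fell 0.0666% of the genes tested. Log2 fold changes ran from 0.25 in *Schip1* to 2.47 in *Sowahb* among the former, and from -0.39 in *Sybu* to -2.98 in *Samd3* among the latter. In 9 of the 21 genes the change was at least 1 on the log2 scale, and in 7 it was below 0.5. In 20 of the 21 the WT and homozygous values were fully separate, the exception being *Slc4a10*. The sign was the same in females and in males in all 21, which full separation makes certain for those 20. Such separation of 5 from 5 embryos was found in 98 genes (0.594%), of which 53 were higher and 45 lower in homozygotes. It gives an exact two-sided permutation p of 0.00794, the smallest that 5 against 5 embryos allow. This p is also the expected share of genes that separate fully if the genotypes do not differ. The share found was below it, so that separation alone does not mark a gene as changed. An unadjusted limma p under 0.05 was found in 534 genes (3.23%), a smaller share than the 0.05 expected without any difference. When the null distribution was estimated from the central part of the test statistics, 42 genes passed (0.254%), and these comprised all of the 21.

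**Figure D1:**
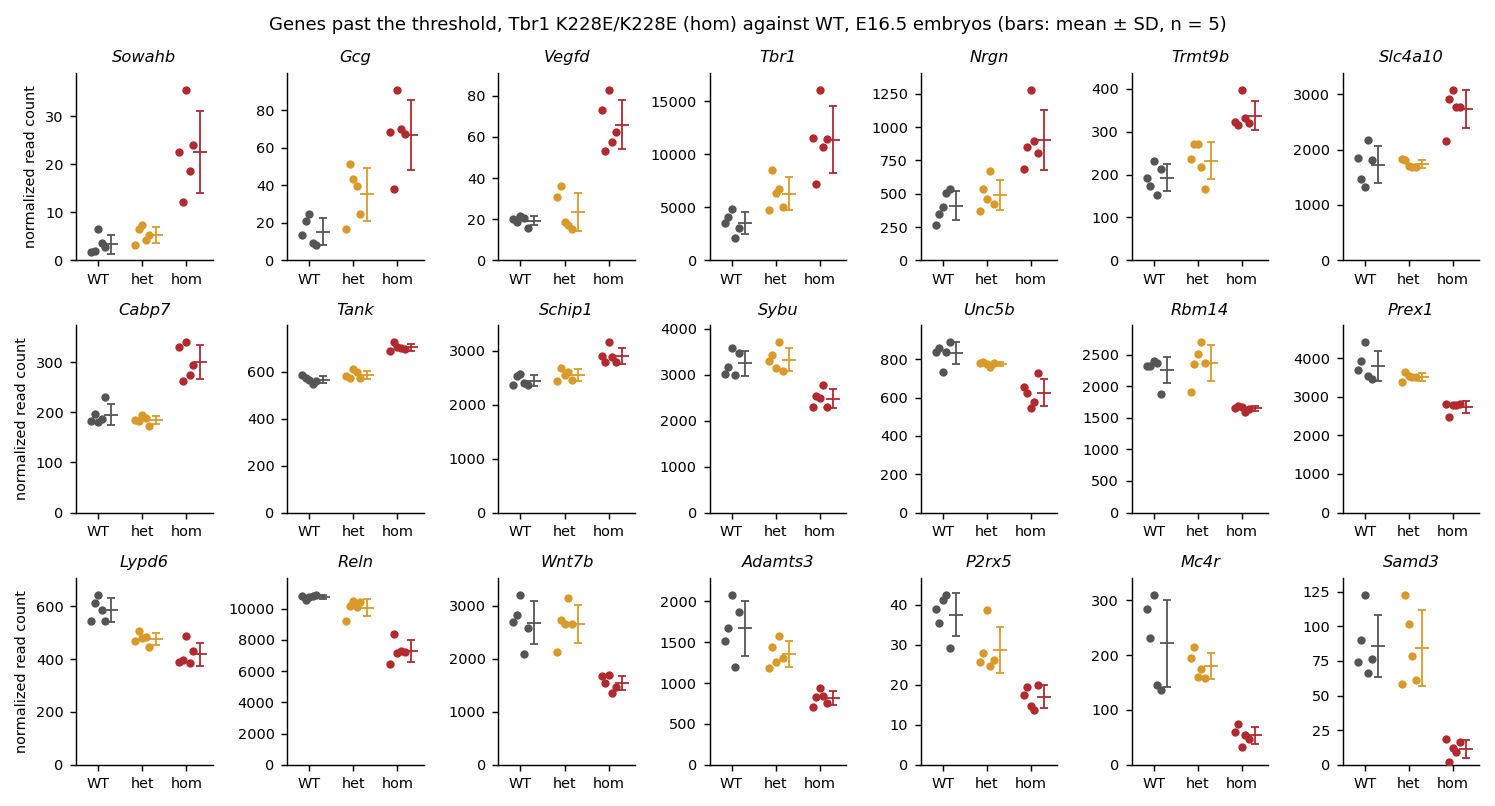
Normalized read counts (vertical axes, from 0) of the 21 genes past the threshold, in each embryo of WT, Tbr1 +/K228E (het), and Tbr1 K228E/K228E (hom), with the mean and SD (n = 5) beside the points. Genes are ordered from the largest rise to the largest fall, and the WT and hom points are separate in every panel except that of *Slc4a10*.

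**Figure D2:**
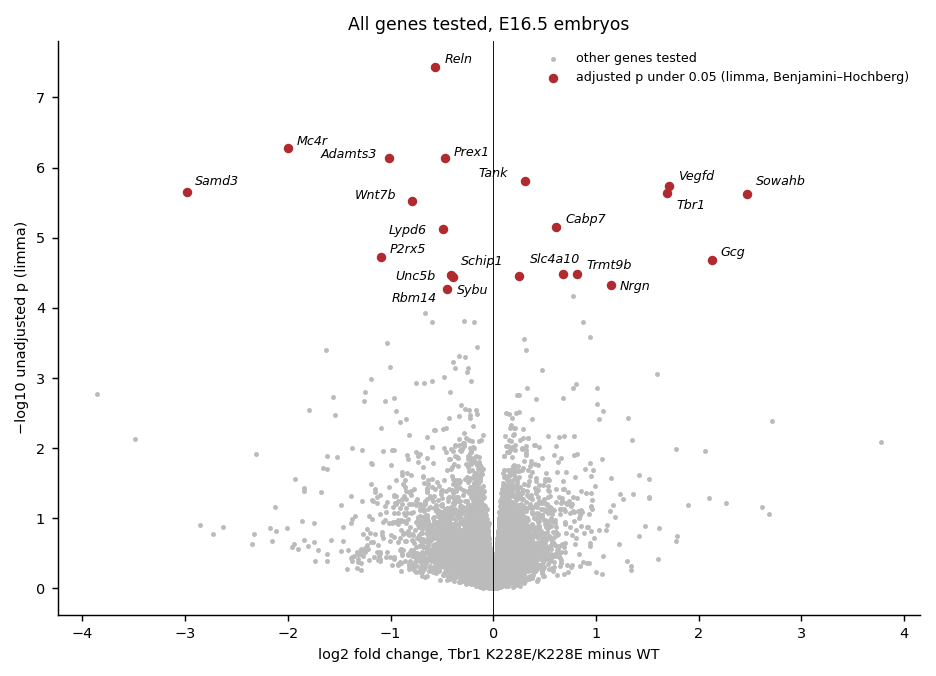
Log2 fold change (horizontal axis, Tbr1 K228E/K228E minus WT) against the unadjusted limma p on a −log10 scale (vertical axis) for the 16507 genes tested. The 21 genes in red passed an adjusted p of 0.05, with *Reln* at the top, *Samd3* farthest left, and *Sowahb* farthest right among them.

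*Tbr1* (ENSMUSG00000035033) lies at chr2:61802930-61814114 of GRCm38. Its normalized read count in replicates 1 to 5 was 3517, 4122, 4871, 2097, and 3079 in WT and 11530, 7148, 16015, 10671, and 11467 in homozygous embryos. Every homozygous embryo was above every WT embryo, and homozygous replicate 3 was the highest and WT replicate 4 the lowest of all. The log2 fold change was 1.69 (standard error 0.23, limma adjusted p = 0.00437), with 1.41 in females and 2.12 in males. The files do not tell transcripts of the mutant from those of the WT sequence. Of the 12 T-box genes tested, *Tbr1* was the sole one past the threshold (0.0606% of all genes tested were called higher). *Eomes*, the T-box gene of intermediate progenitors, had a log2 fold change of 0.02. None of 9 genes listed as partners or targets of TBR1 passed the threshold. That list leaves out *Reln*, *Wnt7b*, *Mc4r*, and *Nrgn*, which passed and which the study names as direct or putative targets. Among the partners, *Cask*, which encodes a scaffold kinase, had a log2 fold change of -0.07 and *Bcl11a* one of 0.21. The known target genes *Grin2b* and *Auts2*, which are among the 9, had log2 fold changes of 0.00 and -0.06.

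On either side of *Tbr1* on chromosome 2, 3 further genes rose, and nearly all the others had values above 0. Within 1.5 Mb of *Tbr1*, 12 other genes were tested, and 11 of them had a log2 fold change above 0, with a median of 0.28. At 1.5 to 5 Mb 17 of 26 genes were above 0 (median 0.03), at 5 to 10 Mb 28 of 53, at 10 to 20 Mb 42 of 73, and on the other chromosomes 48.7% of the genes. *Tank*, *Slc4a10*, and *Gcg* passed the threshold (0.0606% of all genes tested were called higher). At 1.5 to 5, 5 to 10, and 10 to 20 Mb, 0, 0, and 1 genes passed in either direction. On the other chromosomes 15 of 15159 did. In all, 6 of the 21 genes lie on chromosome 2, which holds 1348 of the genes tested, and the others of these are *Tbr1*, *Lypd6*, and *Prex1*.

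*Tank*, whose product binds TRAF proteins and regulates innate immune signalling, lies 149 kb before *Tbr1*. Its normalized read count was 587, 572, 565, 549, and 559 in WT and 690, 725, 706, 700, and 697 in homozygous embryos, so that the spread within each genotype was small beside the difference between them. The log2 fold change was 0.31 (standard error 0.04, limma adjusted p = 0.00437). *Psmd14*, a proteasome gene that ends 2.55 kb before *Tbr1* starts, had a log2 fold change of 0.09 and did not pass the threshold. *Slc4a10*, which encodes a sodium bicarbonate transporter of neurons and the choroid plexus and lies 232 kb after *Tbr1*, read 1844, 1466, 1325, 2178, and 1813 in WT and 2153, 2911, 3071, 2764, and 2772 in homozygous embryos. WT replicate 4 lay above homozygous replicate 1, and the log2 fold change was 0.68 (standard error 0.12, limma adjusted p = 0.0318).

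*Gcg*, the gene of proglucagon, from which glucagon and glucagon-like peptides are cut, lies 660 kb after *Tbr1*. It was low in all embryos, with 13.7, 21.2, 24.8, 9.05, and 8.09 in WT and 68.4, 38.3, 90.8, 70.1, and 67.5 in homozygous embryos. The genotypes did not overlap, and the log2 fold change was 2.13 (standard error 0.35, limma adjusted p = 0.0245). The neighbouring peptidase genes *Dpp4* and *Fap* had log2 fold changes of 0.97 and 0.99 with standard errors of 0.37 and 0.43. Neither passed the threshold, and homozygous replicate 5 stood apart from the rest in *Dpp4*, at 342 against 102 to 161. Of the 8 tested genes of proglucagon, its receptors, and its proteases, *Gcg* was the sole one past the threshold (0.0606% of all genes tested were called higher). *Glp1r*, a receptor of glucagon-like peptide 1, had a log2 fold change of 0.08.

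**Figure D3:**
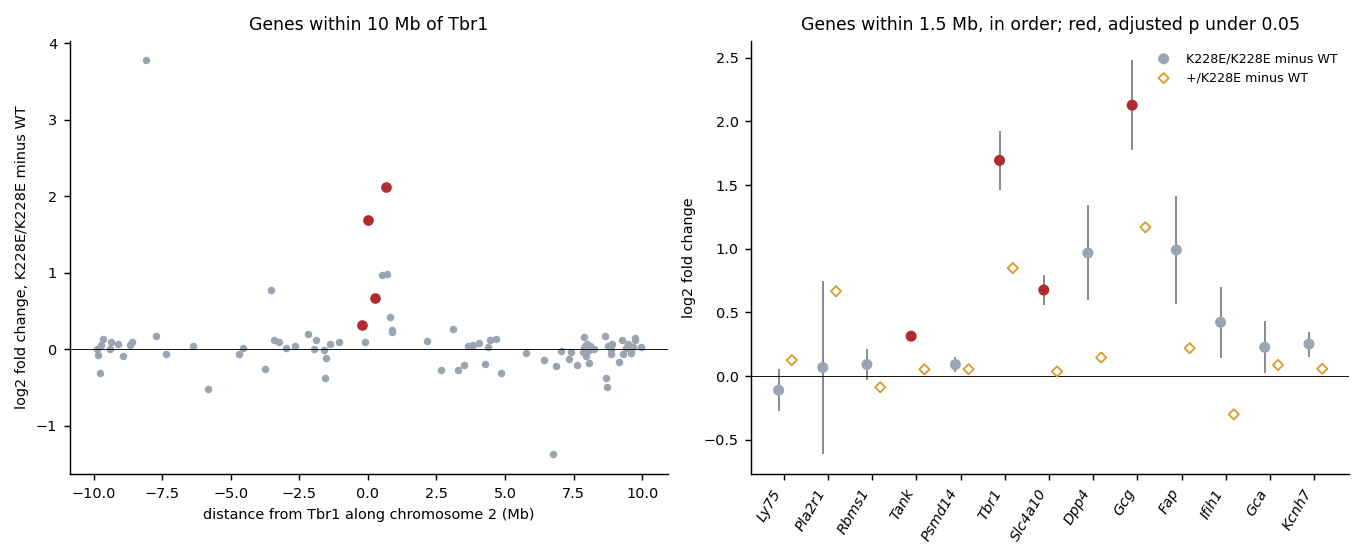
Left, log2 fold change (Tbr1 K228E/K228E minus WT) of genes tested within 10 Mb of *Tbr1*, against distance in Mb, and right, the same for *Tbr1* and the 12 genes within 1.5 Mb in their order, with standard errors, and with the Tbr1 +/K228E value as open diamonds. *Tank*, *Tbr1*, *Slc4a10*, and *Gcg*, in red, passed an adjusted p of 0.05, and 11 of the 12 neighbours lie above 0.

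*Reln* and *Adamts3*, the genes of reelin and of an enzyme that processes it, fell. Most other genes of Cajal-Retzius cells had values below 0 without passing the threshold. *Reln*, which encodes the extracellular glycoprotein that sets the position of migrating cortical neurons, read 10821, 10551, 10726, 10831, and 10906 in WT and 6444, 8400, 7161, 7318, and 7213 in homozygous embryos. WT embryos lay within a narrow band, and even the highest homozygote, replicate 2, was well under it. The log2 fold change of -0.56 (standard error 0.06) had the smallest p of all genes tested, with a limma adjusted p of 0.000603. *Adamts3*, a metalloproteinase that cleaves procollagen and reelin, read 1517, 1679, 2082, 1201, and 1865 in WT and 712, 835, 938, 847, and 754 in homozygous embryos. No homozygote reached the lowest WT embryo, and the log2 fold change was -1.01 (standard error 0.13, limma adjusted p = 0.00298).

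These were the genes past the threshold among 29 of the reelin pathway, both of them lower (0.0666% of all genes tested were called lower). *Lrpap1*, a chaperone of the receptor family to which the reelin receptors belong, came close to the threshold. It ranged from 3108 to 3207 in WT and from 2657 to 2899 in homozygous embryos, which did not overlap, with a log2 fold change of -0.19 and a limma adjusted p of 0.0968. The receptors *Vldlr* and *Lrp8* had log2 fold changes of 0.14 and -0.05, and the adaptor *Dab1* one of 0.02, none of them past the threshold. Other proteases that can cut reelin, *Adamts2*, *Adamts4*, and *Pcsk6*, had log2 fold changes of -0.31, -0.08, and -0.28 without passing. The median over the 29 genes was -0.02, against 0.00 over all genes tested.

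Among 16 genes of Cajal-Retzius cells, 14 had a log2 fold change below 0 (87.5%, against 51.3% of all genes tested), and *Reln* alone passed the threshold. *Ndnf*, a secreted factor of these cells and of layer 1, ranged from 329 to 659 in WT and from 174 to 335 in homozygous embryos, a log2 fold change of -1.01 that did not pass (limma adjusted p = 0.301). *Trp73*, a transcription factor of Cajal-Retzius cells, had a log2 fold change of -0.59 and *Calb2*, the gene of calretinin, one of -0.26, while *Lhx1* and *Lhx5* had -0.15 and -0.21, none of them past the threshold. In a bulk sample, fewer cells of a type cannot be told apart from less RNA in each cell, and this holds for every cell type named here. The meningeal genes, which lie next to these cells, had a median log2 fold change of -0.75, and none of the 17 passed. With the meninges score as a covariate the log2 fold change of *Reln* was -0.57 and its limma adjusted p 0.000651. The median of the 16 Cajal-Retzius genes was -0.15. It was -0.11 with the meninges score and -0.08 with the Hox score (mean log2 value of the Hox genes) as a covariate. *Zic1* belongs to both the Cajal-Retzius and the meningeal list.

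Among the identity genes of cortical layers, *Tbr1* was the sole call. Of 18 genes of layer 6 corticothalamic neurons, *Tbr1* rose and none fell (0.0606% of all genes tested were called higher). *Crym*, which encodes a thyroid hormone-binding protein, came next, with 408, 608, 748, 524, and 872 in WT and 960, 942, 1432, 1175, and 1136 in homozygous embryos. The genotypes did not overlap, yet its log2 fold change of 0.87 (standard error 0.17) missed the threshold with a limma adjusted p of 0.0968. *Nfia*, a nuclear factor I gene, and *Ntsr1*, a neurotensin receptor of layer 6, had log2 fold changes of -0.46 and -0.35. *Foxp2*, *Tle4*, and *Sox5*, which encode transcriptional regulators of deep layers, had -0.08, -0.15, and -0.16. None of these passed. All 4 nuclear factor I genes had values below 0, between -0.46 and -0.03.

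Of 17 genes of layer 5 subcerebral neurons, none passed the threshold, 13 had values above 0, and the median log2 fold change was 0.15, against 0.00 over all genes tested. *Fezf2*, the transcription factor that specifies these neurons, ranged from 713 to 2001 in WT and from 1436 to 2987 in homozygous embryos. The ranges overlapped, and the log2 fold change of 0.66 (standard error 0.24) had an unadjusted limma p of 0.014. *Npr3*, *Bhlhe22*, and *Chst8* also had unadjusted p under 0.05, with log2 fold changes of 0.50, 0.45, and 0.32. *Bcl11b*, which encodes CTIP2, had one of 0.10.

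Of 20 genes of upper-layer callosal neurons none passed. *Inhba*, a subunit of activin, had a log2 fold change of 0.82 (standard error 0.29), *Pou3f1* 0.33, *Cux2* 0.14, and *Cux1* 0.02, while *Rorb*, a nuclear receptor of layer 4, had -0.33 and *Plxnd1* -0.24. Of 18 subplate genes 16 had values below 0 (88.9%, against 51.3% of all genes tested), and none passed. *Nfe2l3*, a bZIP transcription factor that heads this list by p, ranged from 427 to 639 in WT and from 274 to 406 in homozygous embryos, with a log2 fold change of -0.60 and a limma adjusted p of 0.0968. *Ccn2* and *Nr4a2*, which mark the subplate, had log2 fold changes of -0.51 and -0.06 and did not pass.

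Wnt proteins are secreted ligands that act through Frizzled receptors and LRP coreceptors. *Wnt7b*, a ligand made by cortical neurons that also acts on brain vessels, read 2688, 2820, 3205, 2083, and 2584 in WT and 1669, 1538, 1684, 1353, and 1461 in homozygous embryos. The lowest WT embryo was above the highest homozygote, and the log2 fold change was -0.79 (standard error 0.11, limma adjusted p = 0.00493). *Lypd6*, a membrane-anchored protein that acts on LRP coreceptors and on nicotinic receptors, read 542, 613, 644, 584, and 543 in WT and 389, 398, 487, 385, and 430 in homozygous embryos. It fell by 0.49 on the log2 scale (standard error 0.07, limma adjusted p = 0.0102), without overlap between genotypes.

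These 2 were the calls among 47 Wnt ligands, receptors, and secreted regulators, both lower (0.0666% of all genes tested were called lower). Of the 47, 32 had values below 0 (68.1%, against 51.3% of all genes tested), with a median of -0.05, which was 0.00 with the meninges score as a covariate. *Sfrp2*, a secreted Wnt inhibitor, had a log2 fold change of -0.29 without passing. *Wnt7a* had one of 0.13, and *Reck* and *Adgra2*, whose products serve as coreceptors for WNT7 ligands, had -0.08 and -0.24. Of 16 genes that commonly respond to Wnt signalling, 14 had values below 0 (median -0.13) and none passed, with *Apcdd1* at -0.33, *Nkd1* at -0.19, *Notum* at -0.43, and *Rnf43* at -0.39. With the meninges score as a covariate this median was -0.03.

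Several of the widest relative changes were in genes with modest or low values. *Mc4r*, a melanocortin receptor known for the control of appetite in the hypothalamus, read 284, 231, 310, 146, and 137 in WT and 59.6, 74.6, 33.0, 53.7, and 46.1 in homozygous embryos. WT females were all above WT males, and both were above every homozygote. The log2 fold change was -2.0 (standard error 0.24, limma adjusted p = 0.00298), with -2.35 in females and -1.49 in males. The other 17 genes of the melanocortin and hypothalamic list did not pass, among them *Pomc* at -0.46, *Mc3r* at 0.49, and *Trhr*, the receptor of thyrotropin-releasing hormone, at 0.81 (limma adjusted p = 0.41).

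*Samd3*, which encodes a protein with a SAM domain, read 74.1, 90.3, 123, 66.3, and 76.2 in WT and 18.9, 2.10, 12.0, 9.53, and 16.2 in homozygous embryos. Its log2 fold change of -2.98 (standard error 0.41, limma adjusted p = 0.00437) was the largest among the 21 genes. *Sowahb*, an ankyrin-repeat gene, was low in WT, with 1.79, 1.88, 6.48, 3.57, and 2.82, and read 22.4, 12.2, 35.4, 18.6, and 23.9 in homozygous embryos (log2 fold change 2.47, standard error 0.34, limma adjusted p = 0.00437). *P2rx5*, an ATP-gated ion channel, ranged from 29.2 to 42.5 in WT and from 13.7 to 19.9 in homozygous embryos (log2 fold change -1.10, limma adjusted p = 0.0235). The log2 scale used here adds 1 to each value and so understates the changes of genes with low values, such as *Sowahb*.

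Of 22 genes of calmodulin signalling 2 rose and none fell (0.0606% of all genes tested were called higher). *Nrgn*, the gene of neurogranin, which binds calmodulin in dendrites, read 267, 348, 398, 504, and 537 in WT and 682, 849, 1277, 892, and 804 in homozygous embryos. Every homozygote was above every WT embryo, the log2 fold change was 1.14 (standard error 0.20, limma adjusted p = 0.0385), and it was 1.44 in females and 0.70 in males. *Cabp7*, a calcium-binding protein of the calmodulin superfamily, read 183, 197, 181, 187, and 231 in WT and 331, 262, 340, 275, and 294 in homozygous embryos (log2 fold change 0.61, standard error 0.09, limma adjusted p = 0.0102). Of the rest, *Camk1d*, a calmodulin-dependent kinase, had a log2 fold change of 0.18, *Gap43* 0.07, and *Pcp4* -0.05, and none passed. None of 25 voltage-gated calcium channel genes passed, with *Cacna2d1*, an auxiliary subunit, nearest at 0.30 (limma adjusted p = 0.159). None of 16 ionotropic glutamate receptor genes passed, and their log2 fold changes lay between -0.25 and 0.15.

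*Prex1*, *Unc5b*, and *Sybu*, which act in cell migration and in axons, fell. *Prex1*, which activates the small GTPase RAC and takes part in neuronal migration, read 3680, 3916, 4406, 3535, and 3457 in WT and 2808, 2474, 2788, 2773, and 2814 in homozygous embryos. The homozygotes lay close together apart from replicate 2, and the log2 fold change was -0.47 (standard error 0.06, limma adjusted p = 0.00298). It was the sole call among 26 Rac regulators (0.0666% of all genes tested were called lower), and *Prex2* had a log2 fold change of 0.16. *Unc5b*, a netrin receptor, ranged from 734 to 888 in WT and from 543 to 727 in homozygous embryos, a log2 fold change of -0.41 (limma adjusted p = 0.0318). Among 74 axon guidance genes, whose median was 0.00, it was the sole call (0.0666% of all genes tested were called lower). *Flrt3*, a membrane protein that binds UNC5 receptors, ranged from 1077 to 1186 in WT and from 1235 to 1531 in homozygous embryos without overlap, but its log2 fold change of 0.23 did not pass (limma adjusted p = 0.70). *Sybu*, whose product syntabulin links cargo to kinesin in axons, ranged from 2985 to 3572 in WT and from 2287 to 2777 in homozygous embryos (log2 fold change -0.39, limma adjusted p = 0.0318). *Schip1*, a protein of the axon initial segment and nodes, ranged from 2359 to 2573 in WT and from 2785 to 3156 in homozygous embryos (log2 fold change 0.25, limma adjusted p = 0.0318).

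*Rbm14*, an RNA-binding coactivator, ranged from 1883 to 2399 in WT and from 1595 to 1692 in homozygous embryos, a log2 fold change of -0.45 (limma adjusted p = 0.0429). *Trmt9b*, a relative of tRNA methyltransferases, ranged from 152 to 232 in WT and from 315 to 397 in homozygous embryos, a log2 fold change of 0.82 (limma adjusted p = 0.0318). Reads of *Schip1*, *Rbm14*, *Sybu*, and *Cabp7* are less certain to be their own, since each shares exon positions with another gene of the table (*Iqschfp*, *Gm21992*, *A930017M01Rik*, and *Zmat5*), and the library kit does not mark the strand. *Reln* and *Wnt7b* share exon positions with opposite-strand gene models absent from the table (*Gm10475* and *AU022754*), so that the same limit applies to them.

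Among growth factor genes *Vegfd* rose, and no receptor passed the threshold. *Vegfd*, a vascular endothelial growth factor known for its action on lymphatic vessels, read 20.1, 18.9, 21.7, 20.5, and 15.5 in WT and 73.3, 53.4, 82.7, 57.6, and 62.5 in homozygous embryos. The lowest homozygote was well above the highest WT embryo, and the log2 fold change was 1.71 (standard error 0.23, limma adjusted p = 0.00437). Among the other 10 genes of the pathway, the receptors *Kdr* and *Flt4* had log2 fold changes of -0.09 and -0.16 and the ligand *Vegfa* -0.02. *Ccbe1*, a secreted cofactor of the processing of the related ligand VEGFC, had -1.25 (standard error 0.33), and none of these passed. *Fgf10*, a fibroblast growth factor known in radial glia, lay just outside the threshold, with 118, 126, 108, 152, and 96.2 in WT and 197, 173, 266, 219, and 178 in homozygous embryos (log2 fold change 0.78, standard error 0.14, limma adjusted p = 0.0502). Its receptor *Fgfr2* had a log2 fold change of 0.09, and none of 22 FGF genes passed. Of 46 TGF-beta and BMP genes none passed, with *Acvr1c*, an activin receptor, at 0.78, *Fst*, the gene of the activin antagonist follistatin, at 0.68, *Gdf10* at -0.65, and *Bmp3* at -0.48.

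Apart from *Fgf10*, *Lrpap1*, *Nfe2l3*, *Crym*, and *Cacna2d1*, the genes nearest to the threshold were *Cemip*, *Smpd2*, *Atp8b1*, *Bcl6*, and *Cdh4*. *Cemip*, which encodes a hyaluronan-degrading protein, ranged from 363 to 473 in WT and from 200 to 310 in homozygous embryos (log2 fold change -0.67, limma adjusted p = 0.0848). *Bcl6*, a repressor of Notch target genes that promotes neuronal differentiation, ranged from 136 to 343 in WT and from 90.8 to 150 in homozygous embryos (log2 fold change -1.04, limma adjusted p = 0.174), and the other 20 genes of the Notch list did not pass either. *Smpd2*, a sphingomyelinase, had a log2 fold change of -0.29, *Atp8b1*, a lipid flippase, 0.94, and *Cdh4*, a cadherin, -0.16, each without overlap between genotypes (limma adjusted p = 0.0968, 0.154, and 0.189). *Bcl2*, which prevents apoptosis, and *Hrk*, which promotes it, had log2 fold changes of -0.27 and 0.42 without overlap, and none of 23 apoptosis genes passed (limma adjusted p = 0.238 and 0.54). Past the empirical null and next in order were *Runx1t1*, *Dmrt2*, *Whrn*, *Bcl2*, *Sec24d*, and *Ndnf*, with log2 fold changes between -1.63 in *Dmrt2* and 0.32 in *Runx1t1*.

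Lists of other cell types and of general functions held no gene past the threshold. Values below 0 prevailed in astrocyte genes (16 of 18, median -0.13), endothelial and pericyte genes (18 of 20, median -0.10), microglial genes (13 of 15, median -0.13), collagens (31 of 43, median -0.19), and cell-cycle genes (26 of 29, median -0.08). With the meninges score as a covariate the medians of endothelial genes, microglial genes, and collagens were 0.03, 0.00, and -0.05. The collagens *Col1a1*, *Col1a2*, *Col3a1*, *Col6a1*, and *Col6a2* are themselves part of that score. The collagen median was thus partly adjusted for its own members. *Col9a1* was the sole collagen without overlap between genotypes, at 61.5 to 121 in WT and 37.6 to 52.9 in homozygous embryos (log2 fold change -0.75, limma adjusted p = 0.41). *Vcan* and *Tnr*, matrix genes of the brain, had log2 fold changes of -0.30 and -0.26. Cortical progenitor genes had a median of 0.00, with *Pax6* at -0.09 and *Sox2* at 0.04, and interneuron genes one of 0.06, with *Gad1* and *Gad2* at 0.04. Oligodendrocyte lineage genes had a median of -0.10, choroid plexus genes -0.06, genes of the thalamus and midbrain -0.10, and erythroid genes -0.08. With the Hox score as a covariate the medians of astrocyte, oligodendrocyte lineage, choroid plexus, thalamus and midbrain, and erythroid genes were -0.04, -0.04, 0.11, 0.15, and -0.01. With the meninges score they were -0.11, -0.06, 0.32, 0.01, and 0.10, so that the direction of the choroid plexus, thalamus and midbrain, and erythroid medians turned with a covariate. Ribosomal proteins (83 genes), oxidative phosphorylation (74 genes), transcripts of the mitochondrial genome, chaperones, immediate early genes, laminins, and imprinted genes had medians between -0.13 and 0.03.

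**Figure D4:**
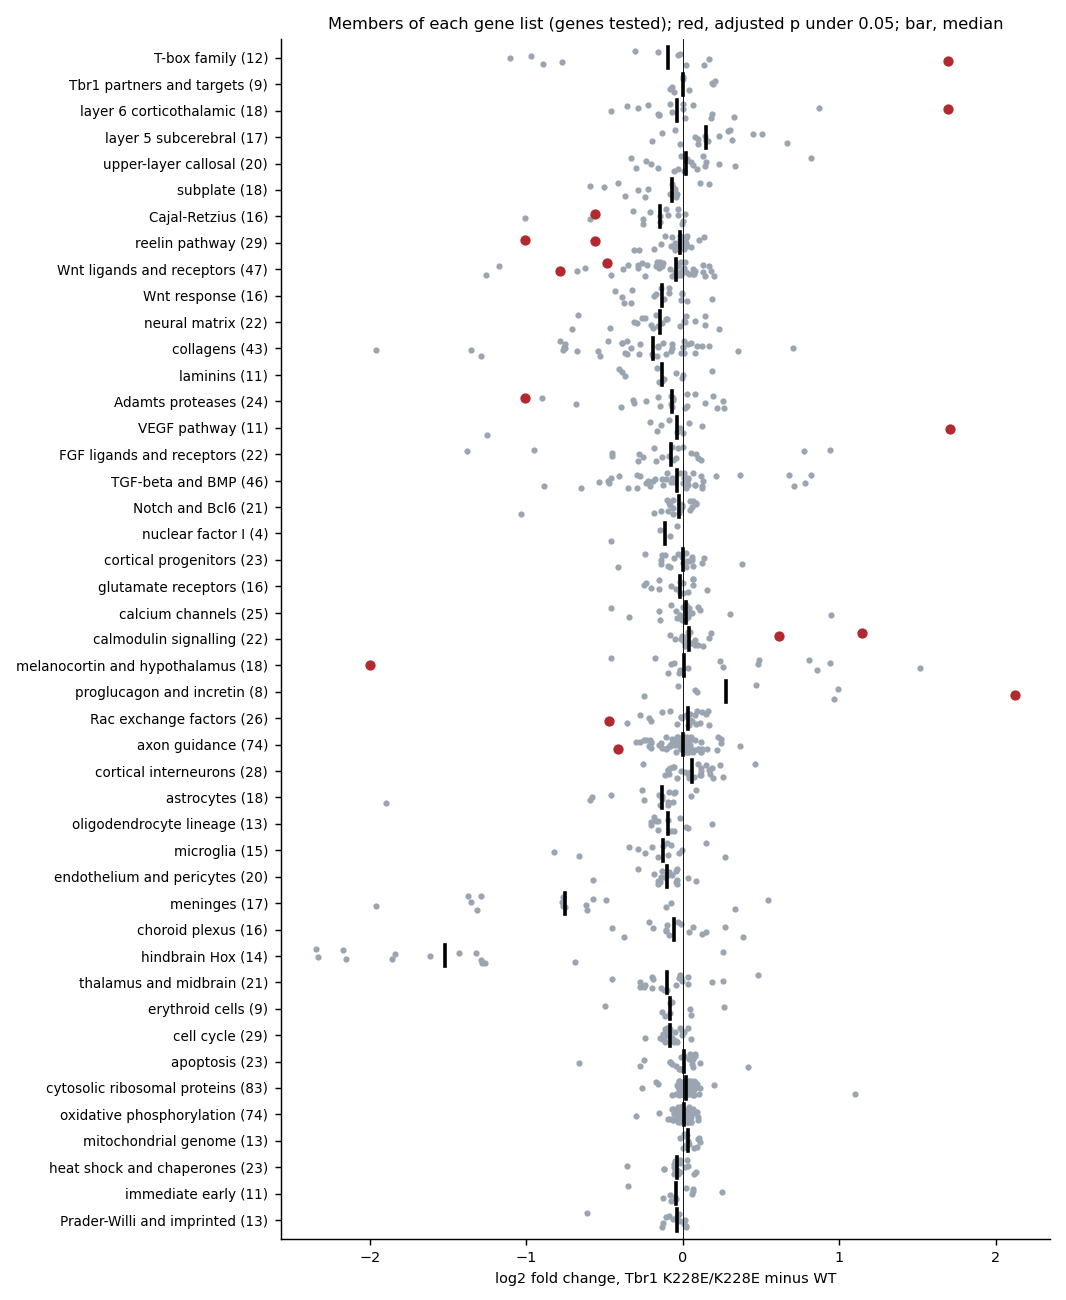
Log2 fold change (horizontal axis, Tbr1 K228E/K228E minus WT) of each tested member of the gene lists (rows, number of genes tested in brackets), with the median as a bar. Members past an adjusted p of 0.05 are in red, and the medians farthest from 0 are those of the hindbrain Hox genes at -1.52 and of the meninges at -0.75, where no member passed.

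The Hox and meningeal lists had wide spreads within each genotype. Of 14 Hox genes 13 had values below 0 with a median of -1.52, and of 17 meningeal genes 15 did. WT embryos had a mean log2 value of the Hox genes of 3.34 ± 2.84 (SD, n = 5), and homozygous embryos one of 1.81 ± 1.51 (SD, n = 5, two-sided exact permutation test, p = 0.302, 0.883 after Benjamini–Hochberg correction over 10 scores). That of the meningeal genes was 9.05 ± 1.74 (SD, n = 5) and 8.34 ± 1.85 (SD, n = 5), with an exact permutation p of 0.563. No score out of the 10 passed the correction. With the Hox score as a covariate 25 genes passed the threshold and 18 of the 21 were among them, the exceptions being *Trmt9b*, *Unc5b*, and *Nrgn*. With the meninges score 21 passed, 20 of them shared, and *Rbm14* was lost. Beyond these fits, the part of tissue composition in the 21 genes was not tested.

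**Figure D5:**
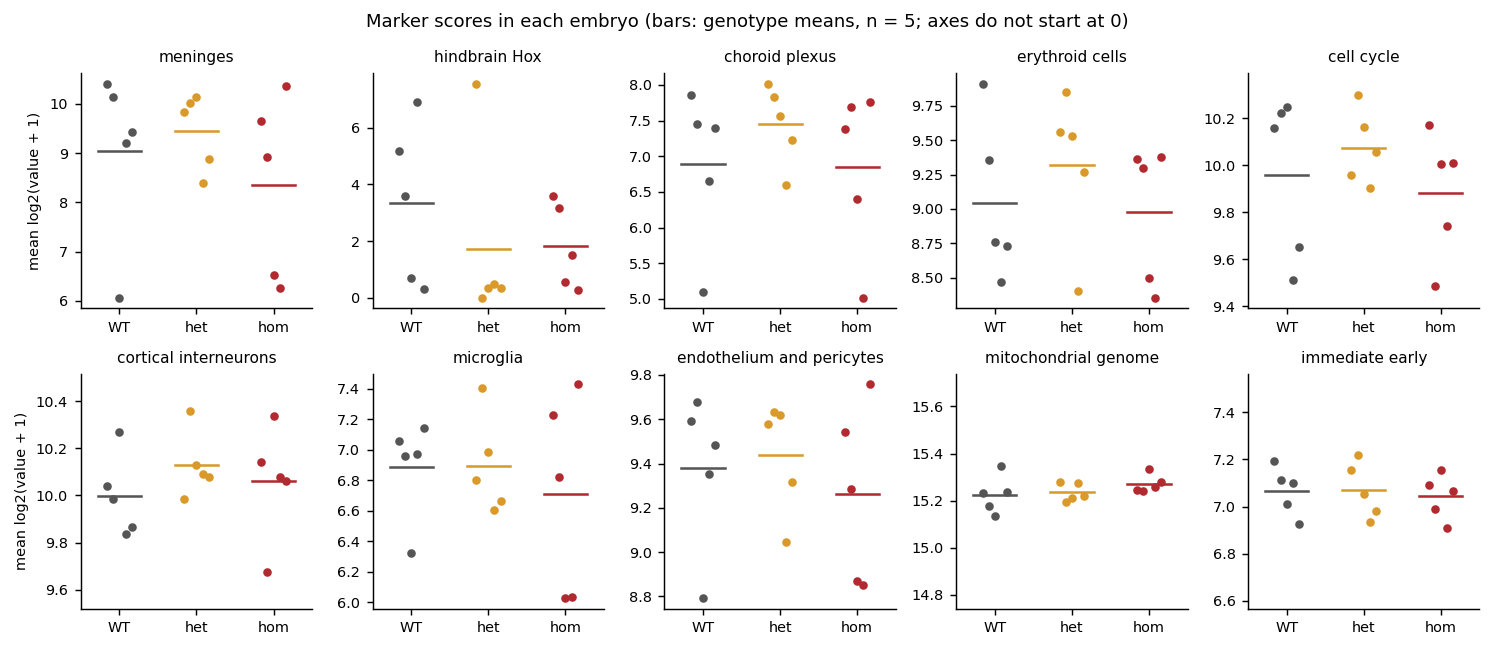
Mean log2(value + 1) of 10 marker lists (a panel each, vertical axis not from 0) in each embryo of WT, Tbr1 +/K228E (het), and Tbr1 K228E/K228E (hom), with bars at genotype means (n = 5). The genotypes overlap in every panel, and the meninges and Hox scores spread most within a genotype.

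The Tbr1 +/K228E embryos, whose values stand beside those of the homozygotes, are compared with the same WT embryos. No gene passed the threshold in them (limma with Benjamini–Hochberg correction, smallest adjusted p 0.999), and 295 genes had an unadjusted p under 0.05. Since both comparisons use the same WT embryos and the 21 genes were chosen by the homozygote values, the values are set side by side as a description. For 18 of the 21 genes the heterozygote log2 fold change was less than 50% of the homozygote value in size. In 10 it was 0.1 or less in size, as in *Wnt7b* (-0.01), *Samd3* (-0.05), and *Slc4a10* (0.04). The genes in which it reached 50% of the homozygote value were *Tbr1* (0.85 beside 1.69), *Gcg* (1.17 beside 2.13), and *Lypd6* (-0.29 beside -0.49). The heterozygous embryos lay apart from all homozygous embryos in 18 of the 21 genes, and apart from all WT embryos in *Reln* and *Lypd6*. Separation from the homozygotes is favoured by the choice of the genes. Since that choice used the same WT embryos, it may favour separation from WT as well. The shares over all genes tested were not counted. *Reln* read 9189, 10206, 10478, 10082, and 10432 in heterozygotes, which placed each of them below the lowest WT embryo and above the highest homozygote.

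No gene passed the threshold for a difference between the sexes in the effect of the homozygous genotype (limma interaction with Benjamini–Hochberg correction, smallest adjusted p 0.752), although 1066 genes had an unadjusted p under 0.05. Of the 21 genes, *Mc4r* and *Prex1* were among those 1066 of the 16507 genes tested. That share of the 21 is near the share over all genes, so that it does not mark either gene as differing by sex. In *Prex1* the log2 fold changes were -0.57 in females and -0.32 in males. With 2 males in each genotype, differences between the sexes were measured with little precision.

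T-box proteins bind DNA sequences that hold AGGTGTGA or its core GGTGTG, and both were searched on either strand in promoters. A promoter ran from 250 bases before to 50 bases after an annotated start, and a gene could have several (RefSeq, GRCm38.p6). The longer sequence contains the core, so that its matches are also matches of the core. Promoters were at hand for 16 of the 21 genes (22 promoters) and for 12239 of the genes tested (15611 promoters). A gene counted as a match if any of its promoters matched, so that genes with more promoters had more chances to match. AGGTGTGA was present in 2 of the 16, *Samd3* and *Schip1*, and in 132 of the 12239 (1.08%). GGTGTG was present in 6 of the 16 and in 21.1% of the 12239. The promoter of *Samd3* is shown since this gene had the largest fall, at chr10:26229652-26229706 on the plus strand, with the match on the opposite strand in capitals. A match of letters does not show that TBR1 binds there.
*Samd3* promoter: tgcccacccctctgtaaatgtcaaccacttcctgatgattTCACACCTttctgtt

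Calls differed in how far they rested on single embryos. With each of the 10 WT and homozygous embryos left out in turn, *Reln*, *Mc4r*, *Prex1*, *Adamts3*, *Tank*, *Vegfd*, *Samd3*, *Tbr1*, *Sowahb*, *Wnt7b*, *Cabp7*, and *Lypd6* passed the threshold in all 10 fits. *P2rx5*, *Gcg*, and *Nrgn* passed in 3, *Slc4a10*, *Trmt9b*, *Unc5b*, *Schip1*, and *Sybu* in 2, and *Rbm14* in 1 of the 10. When only the 10 WT and homozygous embryos entered the fit, 12 genes passed, and *Cabp7*, *Lypd6*, *P2rx5*, *Gcg*, *Slc4a10*, *Unc5b*, *Schip1*, *Sybu*, and *Nrgn* did not.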

How the data were processed

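RNA was extracted from brains kept in RNAlater, and libraries were prepared with the TruSeq RNA kit v2 and sequenced from both ends on an Illumina HiSeq instrument. Transcript abundance had been estimated with Salmon (0.11.2 per the submitters' processing notes) on GRCm38, summed to genes with tximport, and divided by DESeq2 (1.22.2) size factors. The annotation release was not given in the sources used here. The deposited values are thus a normalized signal for each gene rather than reads (30.1 to 55.9% of low values lay within 0.05 of a whole number). No count model was therefore fitted, in contrast to the study.

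Genes were matched to GENCODE M21 by identifier (19469 of 19475). Differences were tested with limma 3.58.1 in R 4.3.3 (lmFit, then trended eBayes) on log2(value + 1), with all 15 embryos in one fit and the Benjamini–Hochberg correction over 16507 genes. A fold change on this scale understates the change of genes with low values. Single genes and the mean log2 values of marker lists were compared by two-sided exact permutation tests (scipy 1.17.1). Depth was estimated from the spacing of the lowest values, because sums of normalized values (30.5 to 31.8 M) do not give it. The fit was tested on simulated data in which 200 genes were changed by 1 on the log2 scale. It recovered 76.5% of them, and 89.1% of those with a mean of at least 50. Smaller changes were not simulated, so that a gene that did not pass may still differ. All columns differed from one another, and r between the log2 values of same-genotype embryos was 0.971 to 0.988.

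The comparison and the gene lists, which came from general knowledge, were chosen with earlier results of these data known, so that no list is independent support. The genes named are those past the threshold, the 10 next in order of p, the genes tested within 1.5 Mb of *Tbr1*, the members of each list with the smallest p (up to 4), the first members of lists of cortical layers, reelin, and markers, and 10 genes that pass an empirical null only. Other genes, such as *Grin2b*, *Auts2*, *Eomes*, and receptors of named ligands, were added for their known function after the values were seen. Alternatives were other pseudocounts, filters, scalings, covariates, variance estimates, sets of embryos, and an empirical null in place of fdrtool. All embryos were used.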

Additional observations from a re-analysis of the deposited data

Results flagged for a closer look

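In 122 groups of 5 embryos (51 genes and 10 marker scores, in WT and in homozygous embryos), the highest or lowest embryo stood far from the others in 8, by a gap of over 0.71 of the whole range of the group. Chance alone gives such a gap in about 1 of 20 groups. *Prex1* was 2474 in homozygous replicate 2, against 2773 to 2814 in the other homozygotes, and *Trmt9b* was 397 in homozygous replicate 3, against 315 to 333. *Rbm14* was 1883 in WT replicate 5, against 2318 to 2399 in the other WT embryos, which is the gap nearest to the homozygous values. *Dpp4*, 516 kb from *Tbr1*, was 342 in homozygous replicate 5, against 102 to 161. *Runx1t1* was 5728 in WT replicate 4, against 4838 to 5063, and *Whrn* was 1097 in the same embryo, against 948 to 981. WT replicate 3 had a mean log2 value of the meningeal genes of 6.06, against 9.20 to 10.4 in the other WT embryos, and one of the microglial genes of 6.32, against 6.96 to 7.14.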

How the results depend on the processing

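The 21 genes (10 higher, 11 lower) became 12 (5 higher, 7 lower) with the 10 WT and homozygous embryos alone in the fit, and 42 (17 higher, 25 lower) with an empirical null. With each embryo left out in turn the count was 12 to 21 (5 to 9 higher, 7 to 12 lower), the fewest being 12 without WT replicate 1 or homozygous replicate 3 and 13 without WT replicate 2 or homozygous replicate 4. Pseudocounts of 0.1 and 10 both gave 22, no filter 21, a mean of at least 50 17, upper quartile rescaling 21, quantile normalization 23, sex as a covariate 20, and robust empirical Bayes 22. The causes were not tested. None of the 21 genes reversed its direction, and of their 479 values over all the alternative fits 389 kept their side of the threshold.

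Replicate numbers are shared across genotypes in the labels, but same-numbered embryos are different animals. Deviations from the genotype mean correlated between same-numbered WT and homozygous embryos with r = 0.357, 0.0238, 0.506, 0.158, and 0.169, and replicates 2 and 4 correlated better with another number, so that the numbers were not taken as pairs. With the replicate block 16 of the 21 genes (8 higher, 8 lower) passed and no others, and *Cabp7*, *Slc4a10*, *P2rx5*, *Sybu*, and *Rbm14* did not pass.

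Of the 21 genes, 4 had a mean normalized read count under 50, and the part of depth in the calls was not tested.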

Other observations

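Beyond the 21 genes, 10 genes had log2 fold changes of at least 1 in size and no overlap between the 5 WT and the 5 homozygous embryos, yet did not pass the threshold, and they were picked for this description after their values were seen. The 6 that were higher in homozygotes were *Atp6v1b1*, *Ccdc150*, *Dsc3*, *Rad21l*, *Gm14472*, and *Gm4707*, and the 4 that were lower were *Mettl21e*, *Dmrt2*, *Atp6ap1l*, and *Gm12960*. All had low values. *Dmrt2*, a transcription factor gene with a DM domain, read 24.1, 31.1, 36.7, 14.3, and 26.3 in WT and 3.47, 6.65, 10.7, 6.60, and 13.6 in homozygous embryos (log2 fold change -1.63, limma adjusted p = 0.202). *Dsc3*, which encodes a desmosomal cadherin, read 18.4, 15.1, 15.3, 33.2, and 24.1 in WT and 36.0, 34.6, 52.8, 57.3, and 33.6 in homozygous embryos (log2 fold change 1.01, limma adjusted p = 0.596). *Atp6v1b1*, a subunit of the vacuolar proton pump, ranged from 1.89 to 13.1 in WT and from 13.2 to 28.2 in homozygous embryos (log2 fold change 1.35, limma adjusted p = 1.00).

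The largest differences in size of all genes tested belonged to *Gvin1*, *Gm13502*, and *Hmga1b*, and none of them passed. *Gvin1*, the gene of an interferon-inducible GTPase, read 9.20, 51.7, 32.8, 45.9, and 10.6 in WT and was listed at 0 in 4 homozygous embryos and at 14.4 in replicate 2 (limma adjusted p = 0.508). *Hmga1b* was listed at 0 in WT replicate 1 and ranged from 22.0 to 62.7 in the other WT embryos, against 0.367 to 1.05 in homozygous embryos (limma adjusted p = 1.00). *Gm13502*, which lies 8.11 Mb before *Tbr1*, was listed at 0 in 3 WT embryos and read 61.3 and 25.8 in the others, against 25.9 to 108 in homozygous embryos (limma adjusted p = 1.00).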
